A study of Mus musculus with 12 samples.

Results

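The unfolded protein response genes described here are 10 genes that a cell transcribes when proteins fold badly in the endoplasmic reticulum: Hspa5, Pdia4, Creld2, Sdf2l1, Dnajb9, Herpud1, Xbp1, Atf4, Ddit3 and Trib3. Their members on the array are all probe sets annotated to exactly 1 of these symbols. That gave 16 of the 28898 probe sets with a single gene, among 45141 probe sets on the array, for 10 of 17097 genes. Hspa5, Atf4 and Herpud1 had 2 probe sets each, Xbp1 had 4, and the other genes had 1. All 16 lay above the filter on dim signals and were tested.

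The response is run by a small set of sensors in the membrane of the endoplasmic reticulum. IRE1 splices the mRNA of Xbp1, PERK phosphorylates a translation factor and so favours translation of Atf4 mRNA, and ATF6 is cut free to enter the nucleus. The resulting factors raise chaperones, folding enzymes and degradation components. Under lasting stress ATF4 also raises Ddit3 and Trib3. In liver the pathway is known for serving the heavy secretory load of hepatocytes and for its ties to lipid metabolism. The arrays measured mRNA only, so splicing of Xbp1 and translation of Atf4 were not observed.

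The study measured total RNA from livers of male mice on Affymetrix perfect-match arrays, under a title that names PPAR signalling and the oxidation of fatty acids. The groups were Pml knockout mice on a high-fat diet (60% of calories from fat), wild-type mice on that diet, Pml knockout mice on a low-fat diet (10% of calories from fat) and wild-type mice on the low-fat diet. Pml encodes the protein that builds the nuclear bodies named after it. Feeding lasted 20 weeks, and livers were collected after an 8 h fast. Each group has 3 extracts out of 8 mice, and each extract has its own array. The sources used here do not give the type of knockout allele, the strain or the age, and do not state outright that each extract is a separate mouse, so the p-values measure the spread between these extracts.

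Values are log2 signals, on which a difference of 1 is a 2-fold change. The brighter probe set of Pml had 3.04 to 3.82 in the 6 knockout extracts, against 4.92 to 5.40 in the 6 wild-type extracts, without overlap. Hepatocyte markers averaged 13.1 to 13.2 on all 12 arrays. Macrophage and Kupffer cell markers averaged 5.02 in knockout low-fat replicate 2 and 5.51 in knockout high-fat replicate 3, against 5.91 to 6.76 on the other 10 arrays. Knockout low-fat replicate 2 also stood apart on the second principal component, at -30.2, a component that held 16.4% of the variance. In bulk liver, fewer cells of a type and less RNA per cell cannot be told apart. With 3 arrays in each group, array number limits the precision of every value, together with the spread of each probe set.

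The promoters of all 10 genes were searched for known elements of the response, and 4 are printed because they hold a full match. The elements were the ER stress response element (ERSE, which is CCAAT followed after 9 bases of any kind by CCACG), ERSE-II (ATTGG followed after 1 base of any kind by CCACG), the unfolded protein response element (UPRE, TGACGTGG), the core of the amino acid response element that ATF4 and CHOP bind (AARE core, TGATGNAAN) and the short core CCACG alone, on both strands. The sequences are RefSeq promoters of GRCm38.p6, from 250 bases before to 50 bases after the annotated start, printed 5' to 3' along the gene with the matches of ERSE, ERSE-II and the AARE core in capitals. The promoter of Hspa5 lies at chr2:34771840-34772139 (plus strand), that of Creld2 at chr15:88819396-88819695 (plus strand), that of Herpud1 at chr8:94386179-94386478 (plus strand) and that of Trib3 at chr2:152344011-152344310 (minus strand).
Hspa5: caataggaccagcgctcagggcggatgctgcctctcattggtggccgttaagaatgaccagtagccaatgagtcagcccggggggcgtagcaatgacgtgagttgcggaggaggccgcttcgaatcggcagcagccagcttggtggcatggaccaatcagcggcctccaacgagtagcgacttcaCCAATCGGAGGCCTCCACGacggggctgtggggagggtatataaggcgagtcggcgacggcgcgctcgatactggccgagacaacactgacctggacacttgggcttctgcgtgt
Creld2: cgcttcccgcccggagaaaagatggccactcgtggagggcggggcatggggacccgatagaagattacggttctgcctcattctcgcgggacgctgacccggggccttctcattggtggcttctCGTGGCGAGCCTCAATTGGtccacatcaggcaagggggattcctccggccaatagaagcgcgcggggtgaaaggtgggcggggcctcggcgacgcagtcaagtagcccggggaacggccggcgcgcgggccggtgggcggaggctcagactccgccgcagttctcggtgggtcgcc
Herpud1: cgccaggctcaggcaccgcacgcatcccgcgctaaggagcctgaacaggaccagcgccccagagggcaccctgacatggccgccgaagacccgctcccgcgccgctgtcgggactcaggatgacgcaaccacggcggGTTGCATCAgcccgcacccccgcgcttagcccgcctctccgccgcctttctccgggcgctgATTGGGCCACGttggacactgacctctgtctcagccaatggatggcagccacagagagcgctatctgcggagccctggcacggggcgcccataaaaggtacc
Trib3: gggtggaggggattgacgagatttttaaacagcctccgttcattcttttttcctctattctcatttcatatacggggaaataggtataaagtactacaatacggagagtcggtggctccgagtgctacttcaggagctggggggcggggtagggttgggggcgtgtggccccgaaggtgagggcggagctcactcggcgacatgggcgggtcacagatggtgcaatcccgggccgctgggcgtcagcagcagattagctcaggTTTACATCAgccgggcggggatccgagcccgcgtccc
ERSE was found in 2 of the 10 promoters, against 0.119% of 32851 promoters. In Hspa5 it spans positions -65 to -47 on the plus strand, and in Creld2 positions -126 to -108 on the minus strand. ERSE-II was found in Herpud1, at -52 to -42, against 0.0365% of all promoters. The AARE core was found in Herpud1, at -113 to -105, and in Trib3, at 13 to 21 after the start, against 3.95% of all promoters. CCACG, which also lies inside both ERSE forms, was found in 7 of the 10, against 32.8% of all promoters. UPRE was found in 0 of the 10, against 0.676%. These are letter matches in a window of 300 bases, and binding was not measured.

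**Figure D1:**
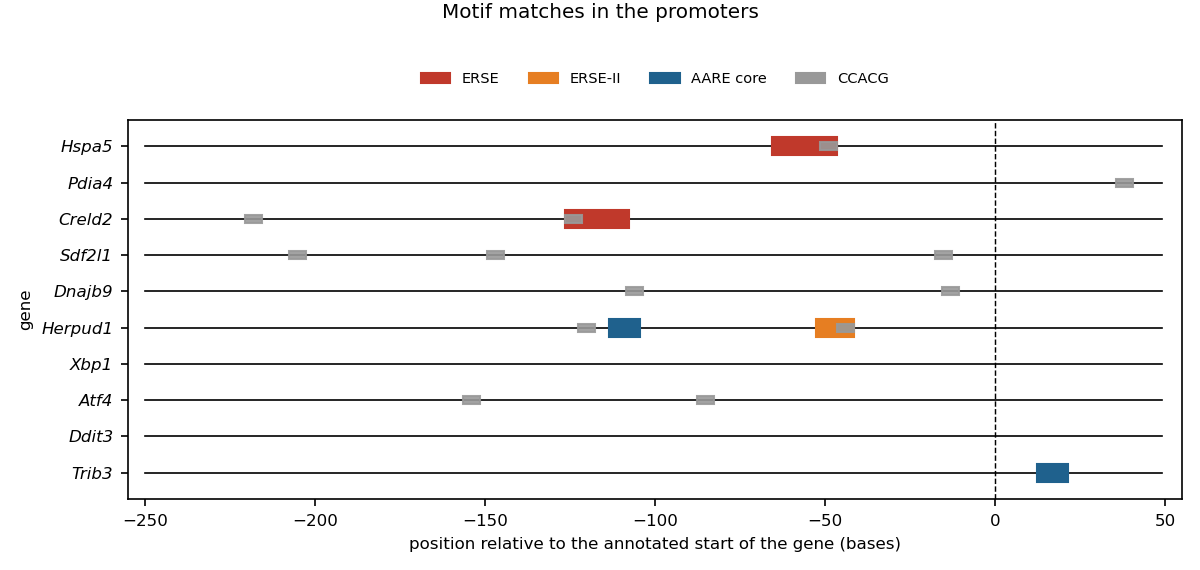
Position of motif matches in the promoters of the 10 genes, in bases from the annotated start (dashed line, position 0), with 1 line per gene and 1 colour per motif. Hspa5 and Creld2 are the genes with an ERSE match, Herpud1 has ERSE-II and an AARE core, and Trib3 has an AARE core after its start.

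Hspa5 encodes BiP, the main chaperone of the endoplasmic reticulum, which also holds the sensors inactive. On the high-fat diet its brighter probe set (1416064_PM_a_at) had log2 signals of 10.63, 10.55 and 10.86 in knockout extracts, against 10.54, 10.47 and 10.65 in wild-type extracts. In knockout low-fat extracts it had 10.75, 10.89 and 10.67, against 11.25, 10.53 and 10.72 in wild-type extracts. The groups overlapped in every pairing that shared a diet or a genotype, and wild-type low-fat replicate 1 was the highest of the 12. The second probe set (1427464_PM_s_at) followed the first with r = 0.911 across the 12 arrays.

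Pdia4, a protein disulfide isomerase that forms and rearranges disulfide bonds, had similar group means. Its log2 signal averaged 8.71 ± 0.0635 in knockout and 8.78 ± 0.185 in wild-type extracts on the high-fat diet, and 8.64 ± 0.0669 in knockout and 8.63 ± 0.327 in wild-type extracts on the low-fat diet (SD, n = 3 each). The 4 groups overlapped, and the lowest extract was wild-type low-fat replicate 3 at 8.25.

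Creld2, a protein of the endoplasmic reticulum with disulfide isomerase activity, was the most variable member. Its high-fat log2 signals were 7.53, 7.50 and 8.23 in knockout extracts, against 8.00, 8.14 and 8.61 in wild-type extracts. Knockout extracts on the low-fat diet had 7.74, 7.96 and 7.40, against 9.44, 7.49 and 7.95 in wild-type extracts. Wild-type low-fat replicate 1 stood far above the others, and within its group the highest extract was 3.87-fold above the lowest. In the other 3 groups that ratio was 1.48 to 1.66.

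Sdf2l1, which works with BiP and its J-domain partners to keep clients from aggregating, spread in the same group. Its high-fat log2 signals were 6.62, 6.76 and 6.99 in knockout extracts, against 6.98, 7.19 and 7.34 in wild-type extracts. Knockout extracts on the low-fat diet had 6.59, 6.65 and 7.07, against 7.69, 6.32 and 5.74 in wild-type extracts. The wild-type low-fat group held both the highest and the lowest of the 12 values, a 3.85-fold range, against 1.28 to 1.40-fold in the other 3 groups. The knockout and wild-type high-fat groups met at their edges, the highest knockout extract lying just above the lowest wild-type one.

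Dnajb9 encodes ERdj4, a J-domain partner of BiP that helps restrain IRE1. Its high-fat log2 signals were 9.24, 9.31 and 9.44 in knockout extracts, against 9.11, 9.08 and 9.11 in wild-type extracts. Knockout extracts on the low-fat diet had 9.11, 9.83 and 9.42, against 8.94, 9.23 and 10.06 in wild-type extracts. The high-fat groups did not overlap and were tight. The low-fat groups overlapped, and wild-type low-fat replicate 3 was the highest extract and replicate 1 the lowest.

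Herpud1 encodes a membrane protein that assembles the machinery of endoplasmic reticulum-associated degradation. On the high-fat diet its brighter probe set (1435626_PM_a_at) had log2 signals of 11.72, 10.69 and 11.14 in knockout extracts, against 11.60, 11.42 and 11.65 in wild-type extracts. In knockout low-fat extracts it had 11.68, 11.37 and 11.24, against 11.76, 11.02 and 11.87 in wild-type extracts. Knockout high-fat replicate 2 was the lowest extract, and the groups overlapped on both diets. The second probe set (1448185_PM_at) followed with r = 0.983 across the 12 arrays.

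Xbp1 encodes the transcription factor made active by IRE1. Its brightest probe set (1437223_PM_s_at) had log2 signals of 11.13, 11.78 and 11.71 in knockout high-fat extracts, against 11.55, 11.30 and 11.46 in wild-type high-fat extracts. In knockout low-fat extracts it had 11.22, 11.83 and 11.65, against 11.77, 11.63 and 11.56 in wild-type extracts. The knockout groups each held 1 low extract, replicate 1, and spanned the wild-type groups. By this probe set wild-type high-fat extracts lay just below wild-type low-fat extracts without overlap, and by each of the others these groups overlapped. The 3 brighter of its 4 probe sets correlated with each other at r from 0.933 to 0.963, and the dimmest (1420012_PM_at) correlated with these at r from 0.693 to 0.721. The labels do not say which of these probe sets, if any, can tell the spliced from the unspliced mRNA.

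Atf4 encodes the transcription factor of the PERK arm. Its brighter probe set (1448135_PM_at) had log2 signals of 8.83, 9.16 and 9.14 in knockout high-fat extracts, against 9.02, 8.95 and 8.84 in wild-type high-fat extracts. In knockout low-fat extracts it had 9.01, 9.23 and 9.11, against 8.67, 8.87 and 8.88 in wild-type extracts. All 3 knockout low-fat extracts lay above all 3 wild-type low-fat extracts, and the high-fat groups overlapped. The second probe set (1439258_PM_at) was dim, at 3.94 on average against a filter limit of 3.83. It followed the first with r = 0.216 only.

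Ddit3 encodes CHOP, the factor tied to cell death under lasting stress. Its log2 signal averaged 5.78 ± 0.176 in knockout and 5.84 ± 0.0731 in wild-type extracts on the high-fat diet, and 5.94 ± 0.273 in knockout and 6.0 ± 0.123 in wild-type extracts on the low-fat diet (SD, n = 3 each). The groups overlapped on both diets.

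Trib3 encodes a pseudokinase that binds AKT and is a target of ATF4 and CHOP. Its high-fat log2 signals were 6.35, 5.50 and 5.70 in knockout extracts, against 5.79, 5.78 and 6.0 in wild-type extracts. Knockout extracts on the low-fat diet had 5.77, 5.98 and 6.20, against 5.92, 5.50 and 5.89 in wild-type extracts. Knockout high-fat replicate 1 was the highest extract, and the groups overlapped on both diets.

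**Figure D2:**
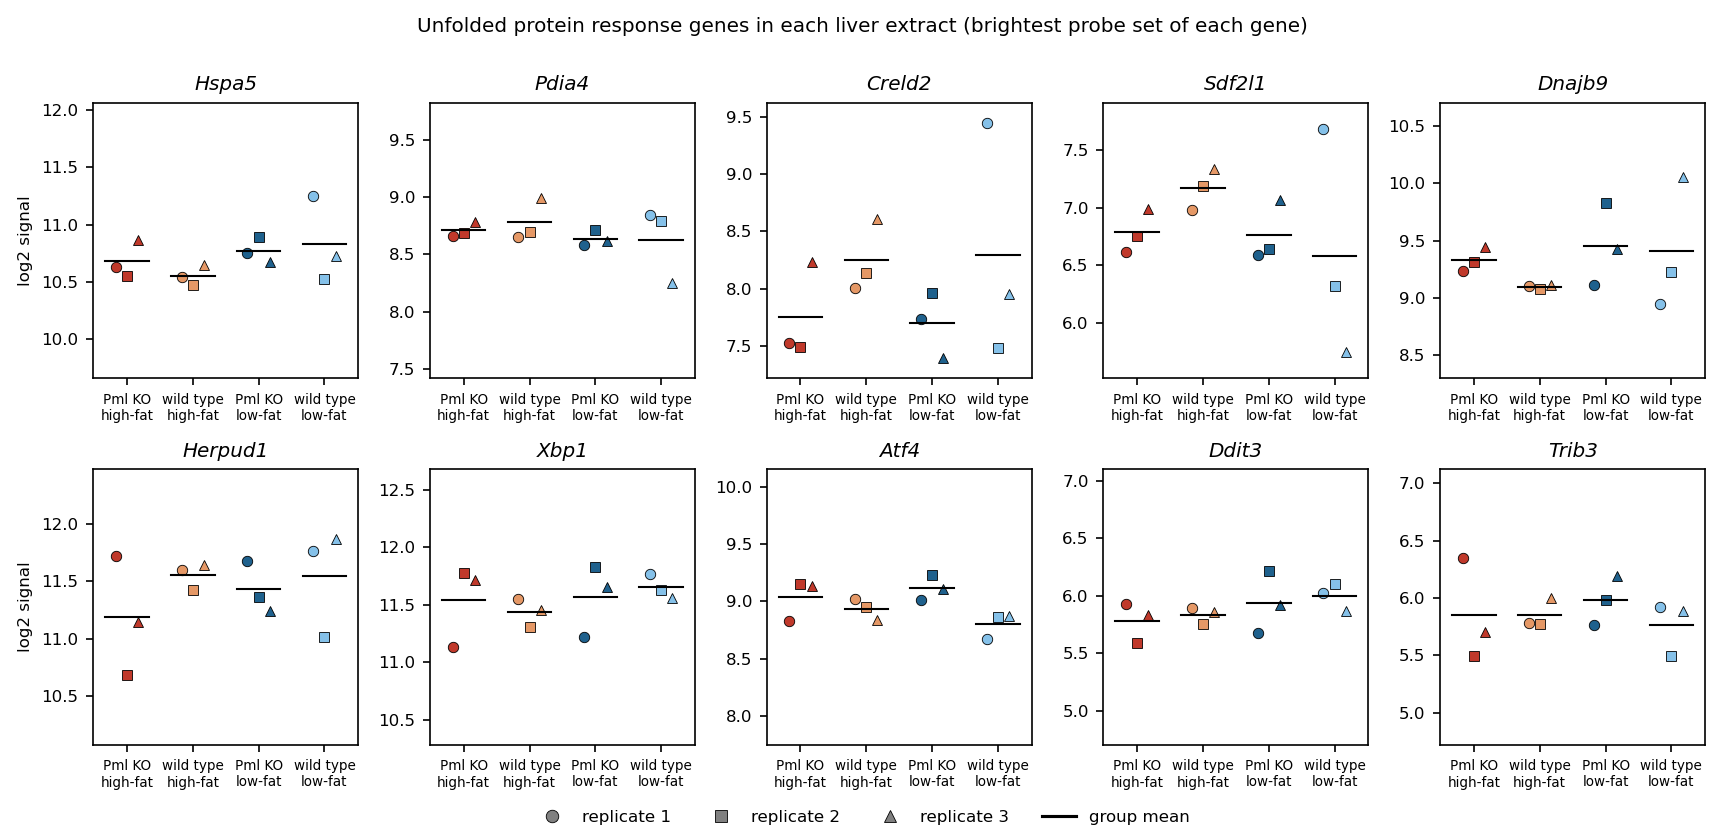
Log2 signal of the brightest probe set of each gene in every extract (symbols mark the replicate, lines the group mean), with every vertical axis spanning the same number of log2 units and not starting at 0. Groups that share a diet or a genotype overlap, except in Dnajb9 (genotypes, high-fat diet), Atf4 (genotypes, low-fat diet) and Xbp1 (diets, wild type). Wild-type low-fat replicate 1 stands at 9.44 in Creld2 and 7.69 in Sdf2l1.

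Knockout was compared with wild type on each diet to see whether loss of Pml changed these genes. On the high-fat diet 0 of the 16 probe sets passed an adjusted p of 0.05 in limma, and 0 had an unadjusted p under 0.05. Of all 17339 probe sets tested, 0.00577% passed, which is Pml alone, and 4.35% had an unadjusted p under 0.05. The 16 log2 differences ran from -0.50 to 0.23, with a median of 0.07 against 0.01 for all probe sets tested. The lowest was that of Creld2 (-0.50, SE 0.387, 95% interval -1.34 to 0.34, adjusted p = 0.997), and it was -0.32 without wild-type high-fat replicate 3. The highest was that of Dnajb9 (0.23, SE 0.23, adjusted p = 0.997), the 1 member whose groups did not overlap, as in 6.47% of all probe sets in that direction.

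On the low-fat diet 0 of the 16 passed, against 0.00577% of all probe sets, again Pml alone. The brighter probe set of Atf4 was 0.31 higher in knockout (SE 0.104, 95% interval 0.09 to 0.54, unadjusted p = 0.0103), which did not pass (adjusted p = 0.509). It was the 1 member with an unadjusted p under 0.05, as in 8.13% of all probe sets, and the 1 member without overlap, as in 6.25% in that direction. The dim probe set of Atf4 differed by -0.0007 (SE 0.212), and the mean of both probe sets by 0.16. The difference of Creld2 was -0.60 (SE 0.387, 95% interval -1.43 to 0.24, adjusted p = 0.737). Leaving out wild-type low-fat replicate 1 gave -0.02, and leaving out replicate 2 of that group gave -0.999.

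Averaged over both diets, 0 of the 16 passed, against 0.00577% of all probe sets. Atf4 was 0.21 higher in knockout by its brighter probe set (SE 0.0736, 95% interval 0.05 to 0.37, unadjusted p = 0.0142, adjusted p = 0.685). That probe set was the 1 member with an unadjusted p under 0.05, as in 6.62% of all probe sets. By the mean of both probe sets Atf4 was 0.11 higher. Creld2 differed by -0.55 (SE 0.274, 95% interval -1.14 to 0.05, adjusted p = 0.749), by -0.26 without wild-type low-fat replicate 1 and by -0.75 without replicate 2 of that group. The brighter probe set of Hspa5 differed by 0.03 (95% interval -0.19 to 0.26) and Pdia4 by -0.03 (95% interval -0.24 to 0.19), so a change of 1.5-fold in these chaperones lies outside the intervals.

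The diets were compared within each genotype. In wild-type livers 0 of the 16 passed, against 0.138% of all probe sets. The second probe set of Hspa5 was 0.37 lower on the high-fat diet (SE 0.166, 95% interval -0.73 to -0.01, unadjusted p = 0.045, adjusted p = 0.59), the 1 member with an unadjusted p under 0.05, as in 8.24% of all probe sets. Without wild-type low-fat replicate 1 this log2 difference was -0.16, and without replicate 2 of that group it was -0.53. The brighter probe set of Hspa5 differed by -0.28 (SE 0.147, 95% interval -0.59 to 0.04, adjusted p = 0.669). Its difference was -0.07 without replicate 1 of that group and -0.43 without replicate 2. The brightest probe set of Xbp1 differed by -0.22 (SE 0.168, adjusted p = 0.804) without overlap, as in 8.35% of all probe sets in that direction. By every other probe set of Xbp1 these groups overlapped. The largest difference was that of Sdf2l1, at 0.59 (SE 0.353, 95% interval -0.18 to 1.35, adjusted p = 0.719). Without wild-type low-fat replicate 1 it was 1.14 (SE 0.202, adjusted p = 0.104), and without replicate 3 of that group it was 0.17.

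In knockout livers 0 of the 16 passed, against 1.83% of all probe sets, and 0 had an unadjusted p under 0.05, against 15.7%. The log2 differences of the 16 ran from -0.24, in Herpud1, to 0.25, in the dimmest probe set of Xbp1, and all 16 intervals lay within 1 log2 unit of 0. Averaged over both genotypes 0 of the 16 passed, against 2.94% of all probe sets, and 0 had an unadjusted p under 0.05, against 17.4%. The Sdf2l1 difference was 0.30 (SE 0.25, adjusted p = 0.585). It was 0.58 without wild-type low-fat replicate 1 (SE 0.135, adjusted p = 0.0608), the lowest adjusted p of any member under any setting tried, and 0.09 without replicate 3 of that group. The difference between the diet effects of the 2 genotypes passed for 0 of the 16 and for 0% of all probe sets in limma, with unadjusted p under 0.05 for 0 of the 16 and for 5.51% of all. The 7 comparisons share groups, so their differences are not independent of each other.

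A call of 0 does not show that the genes did not change. The 95% intervals lay within a 2-fold change in either direction for 14 of the 16 probe sets in the genotype comparison on the high-fat diet. They did so for 15 on the low-fat diet and for 15 in the diet comparison in wild type. For the difference between diet effects 12 lay within that bound. The intervals that reached past it belong to Creld2 and Sdf2l1 in the genotype and diet comparisons. In the difference between diet effects they belong to Creld2, Sdf2l1 and the Xbp1 probe sets 1420886_PM_a_at (up to 1.05) and 1420011_PM_s_at (up to 1.15).

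**Figure D3:**
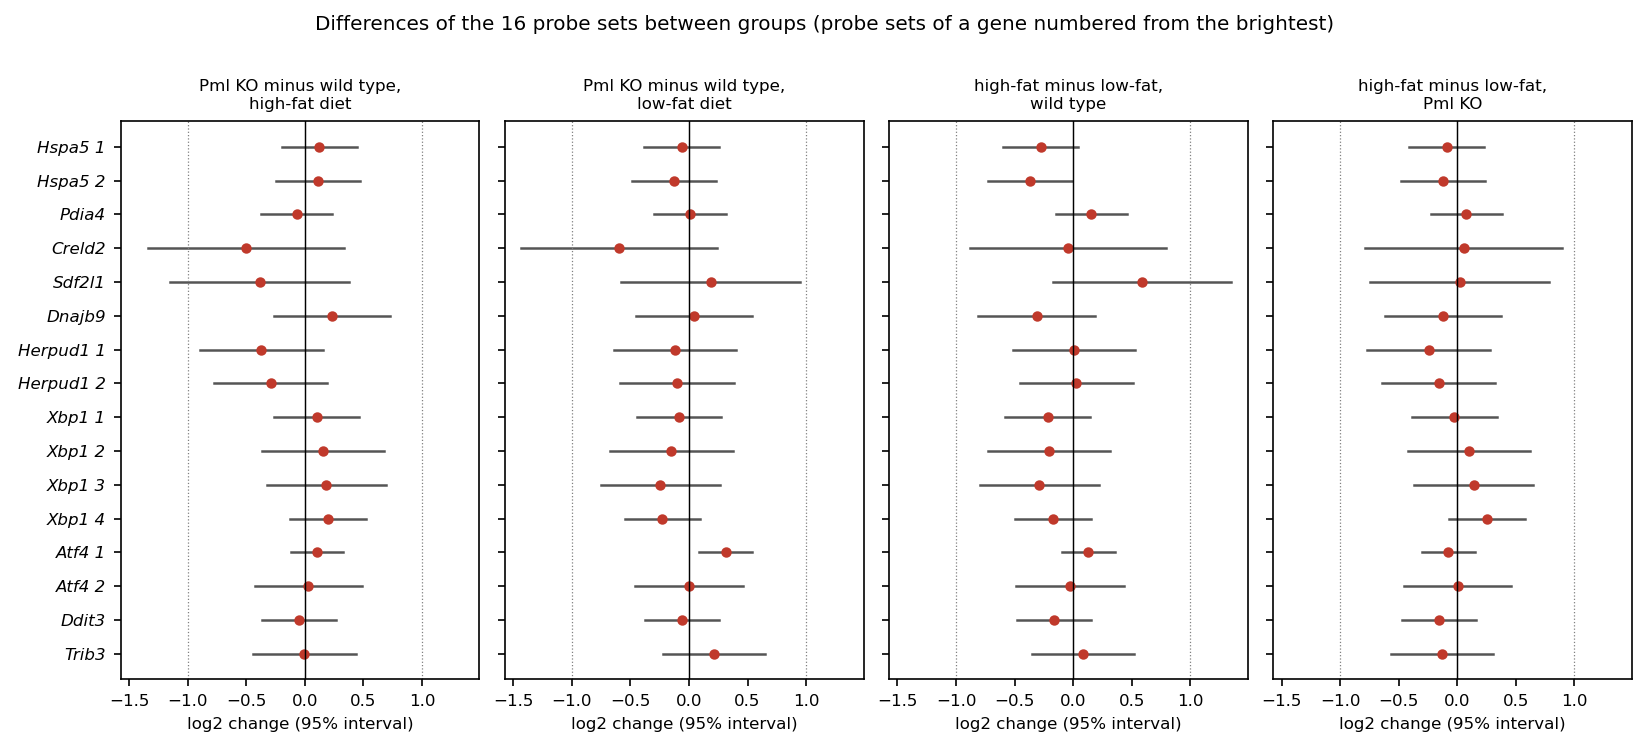
Log2 difference (points) with limma's 95% interval (lines) of the 16 probe sets in the comparisons of genotype on each diet and of diet in each genotype; dotted lines mark a 2-fold change. The widest intervals are those of Creld2, from -1.34 to 0.34 in knockout minus wild type on the high-fat diet, and of Sdf2l1.

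Several members spread widely between extracts of one group. The pooled SD within groups was 0.591 for Creld2, higher than in 99% of all probe sets tested, and 0.532 for Sdf2l1, higher than in 98.6%. Against the 1000 probe sets nearest in mean signal these shares were 99% and 97.5%. The brighter probe set of Herpud1 had a within-group SD of 0.37, higher than in 95.6% of all probe sets, and Dnajb9 had 0.345, higher than in 94.5%. The brighter Atf4 probe set had 0.13, higher than in 30.9%, and Ddit3 had 0.177, higher than in 58.6%. These shares are a description, and no test of the spread was made.

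Deviations were taken as the log2 signal of an extract minus the mean of its group, so that differences between groups play no part, and 12 arrays then leave 8 free values. In deviations, Creld2 followed Hspa5 with Pearson's r = 0.981 and Spearman's rho = 0.923 (n = 12), the highest r with Hspa5 among 11234 other genes. Ranking by deviations was chosen after the data were seen. In wild-type low-fat replicate 1 Hspa5 lay 0.42 and Creld2 1.15 above the group mean, and in replicate 2 they lay at -0.31 and -0.81. Without replicate 1 of that group r was 0.936 and the rank 3, and without all 3 wild-type low-fat arrays r was 0.927 and the rank 7. The plain signals of Hspa5 and Creld2, group differences included, gave r = 0.704 and rho = 0.343, with r = 0.208 without the 2 arrays farthest from the median of Hspa5 and 0.31 without the 2 farthest from that of Creld2. The pair share arrays, and the values are given as a description with no p.

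Some chaperones that are not members ranked high in likeness to Hspa5. In deviations Hsp90b1 (GRP94), a folding chaperone, had r = 0.918 (rank 6 of 11234 genes), Hyou1 (GRP170), which exchanges nucleotide on BiP, had 0.909 (rank 7), Manf, a secreted stress protein that binds BiP, had 0.905 (rank 8), and Dnajb11 (ERdj3), a J-domain partner of BiP, had 0.874 (rank 14). These genes were picked for their rank. Ranks 2 to 5 were held by Asic1, Cox5a, Fam205a1 and Lss, which are on none of the lists used here. Of the 23 listed chaperones and folding enzymes, 7 were among the 100 genes most like Hspa5, against 0.89% of all genes. So were 3 of 25 listed genes of translocation, glycosylation and export and 1 of 8 of cytosolic heat shock. Without wild-type low-fat replicate 1, 0 of the 23 were, and without that whole group 2 were. The median r with Hspa5 was 0.507 for the 23 and 0.403 for the 8 heat shock genes. Without replicate 1 of that group these medians were 0.135 and 0.476. Sdf2l1 had r = 0.713 with Hspa5, and -0.15 without that replicate. In that extract 17 of the 23 lay above their group mean, with a median deviation of 0.15, and in knockout high-fat replicate 3 18 of the 23 did, with a median of 0.06. The chaperones did not always go with Hspa5. In knockout low-fat replicate 3 17 of the 23 lay above their group mean (median 0.04) with Hspa5 at -0.10, and in wild-type high-fat replicate 1 15 did (median 0.04) with Hspa5 at -0.01. In wild-type low-fat replicate 1 macrophage markers averaged 5.91, the lowest of the wild-type extracts, and endothelial markers 6.40. In knockout high-fat replicate 3 these were 5.51 and 5.82. Their part in these deviations was not tested.

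**Figure D4:**
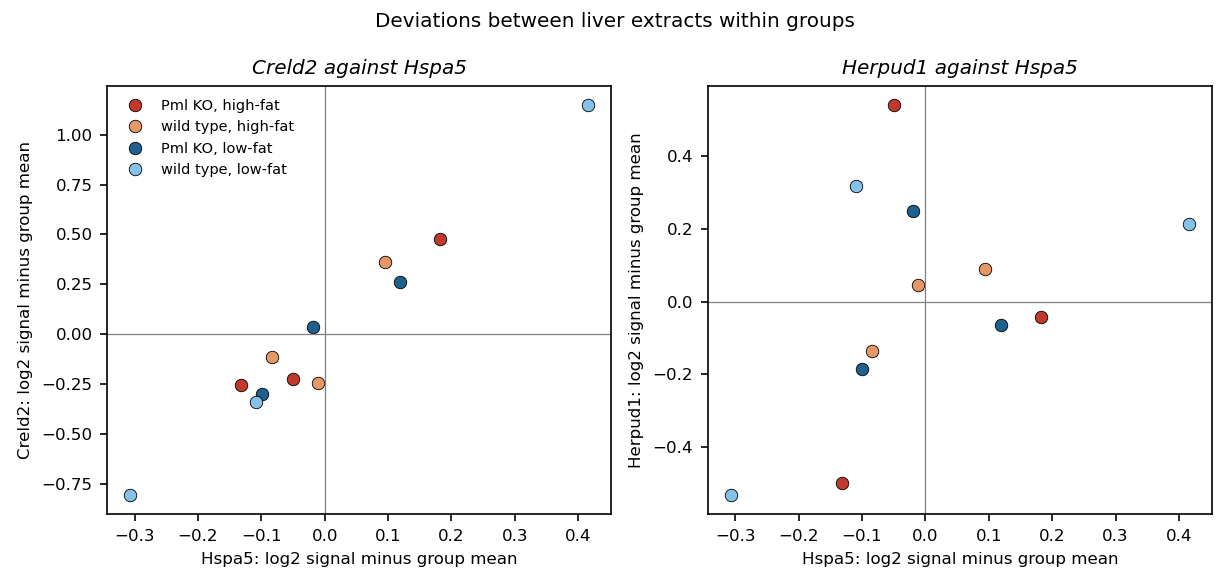
Deviations of Creld2 (left) and Herpud1 (right) from the group mean against those of Hspa5, in log2 units, 1 point per extract coloured by group. Creld2 follows Hspa5 (r = 0.981), with wild-type low-fat replicate 1 at 0.42 and 1.15; Herpud1 scatters (r = 0.428).

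The other members followed Hspa5 less closely than Creld2 did. Of the 9 other members, 7 had a positive r of deviations with Hspa5, with a median of 0.29 against -0.05 for all genes, and 8 did without wild-type low-fat replicate 1, with a median of 0.24 against -0.11. Pdia4 had r = 0.416, Xbp1 0.294, Trib3 0.272 and Ddit3 0.223, and Dnajb9 (-0.207) and Atf4 (-0.29) had negative values. In deviations from group means Herpud1 had r = 0.714 with Trib3, -0.58 with Xbp1 and -0.66 with Atf4. In knockout high-fat replicate 1, Herpud1 lay 0.54 and Trib3 0.50 above the group mean, with Xbp1 at -0.41 and Atf4 at -0.21. In plain signals the r of Herpud1 with Trib3 was 0.578. It was 0.132 without the 2 arrays farthest from the median of Herpud1, and 0.797 without the 2 farthest from the median of Trib3. Dnajb9 and Sdf2l1 ran in opposite directions (r = -0.657 in deviations), with wild-type low-fat replicate 3 at 0.65 for Dnajb9 and -0.84 for Sdf2l1. In plain signals that r was -0.705, -0.416 without the 2 arrays farthest from the median of Dnajb9 and -0.235 without the 2 farthest from the median of Sdf2l1. The 10 genes form 45 pairs, and these are examples chosen after all were seen.

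**Figure D5:**
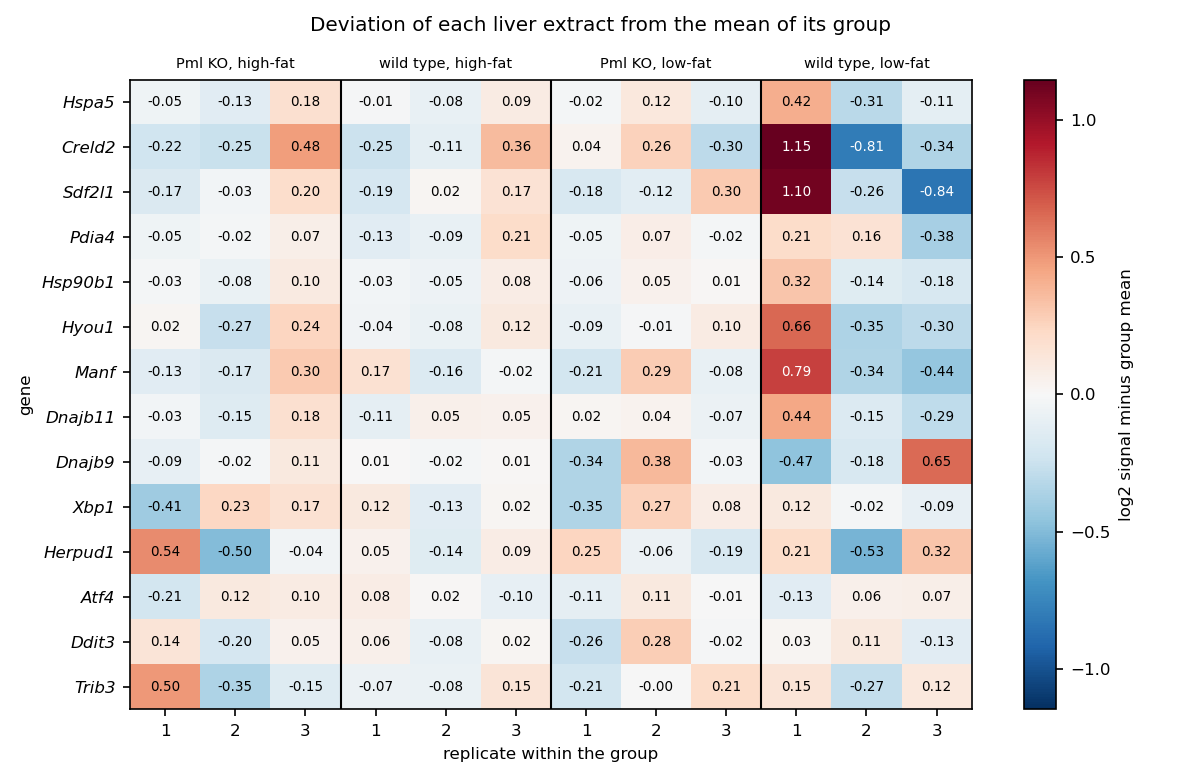
Log2 signal minus group mean for the 10 members and 4 chaperones that rank near Hspa5 (rows) in each extract (columns, by group and replicate), red above and blue below the mean. Wild-type low-fat replicate 1 is high in Hspa5 (0.42), Creld2 (1.15), Sdf2l1 (1.10), Hyou1 (0.66) and Manf (0.79), and low in Dnajb9 (-0.47).

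By plain signal over the 12 arrays, the 5 genes most like Hspa5 were Klk6 (r = 0.885), Crygn (0.868), Atp13a2 (0.847), Ogfrl1 (0.842) and Lss (0.835). Without wild-type low-fat replicate 1 and knockout low-fat replicate 2, the arrays farthest from the median of Hspa5, these r were 0.709, 0.725, 0.607, 0.516 and 0.469. Those most like Trib3 were Arhgef40 (r = 0.916), Smcr8 (0.896), Depdc5 (0.839), Hnrnpul1 (0.832) and Eya3 (0.815), with 0.783, 0.798, 0.859, 0.567 and 0.598 without knockout high-fat replicate 1 and knockout low-fat replicate 3. None of these 10 genes belongs to a list of the response used here.

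The rest of the pathway was read from 6 lists, 5 of the response and its secretory machinery and 1 of cytosolic heat shock, with 111 of 127 genes tested. In the genotype comparisons on each diet and averaged, in the diet comparison in wild type and in the difference between diet effects, 0 of the 111 passed in limma. Of all 11235 genes, 0.0089% passed in each genotype comparison, 0.16% in the diet comparison in wild type and 0% in the difference between diet effects. In the diet comparison in knockout livers 3 passed (2.7%, against 2.12% of all 11235 genes), and the same number averaged over genotypes (2.7%, against 3.49%). The share was near that of all genes in both.

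Ero1b, an oxidase that recharges disulfide isomerases, had log2 signals of 8.29, 8.43 and 8.83 in knockout high-fat extracts, against 9.10, 9.52 and 9.29 in knockout low-fat extracts. It fell by 0.79 on the log2 scale (SE 0.17, adjusted p = 0.0359). With the mean of the probe sets of Ero1b the difference was -0.58. Ppp1r15a (GADD34), which brings a phosphatase to the translation factor that PERK phosphorylates, had 5.61, 5.32 and 5.49 in knockout high-fat extracts, against 6.04, 5.81 and 6.06 in knockout low-fat extracts. It fell by 0.50 on the log2 scale (SE 0.114, adjusted p = 0.045). Shmt2, a mitochondrial enzyme of one-carbon metabolism and a target of ATF4, had 9.71, 9.64 and 9.52 in knockout high-fat extracts, against 9.23, 9.21 and 9.24 in knockout low-fat extracts. It rose by 0.40 (SE 0.0847, adjusted p = 0.035). In none of these genes did the knockout groups overlap, as in 9.82% of all probe sets for lower and 9.72% for higher signals on the high-fat diet. The wild-type means moved in the same directions. Ppp1r15a averaged 5.652 in wild-type high-fat and 5.863 in wild-type low-fat extracts, without overlap. Shmt2 averaged 9.696 and 9.523 in these groups, with overlap. Ero1b ran from 8.62 to 8.88 and from 8.69 to 9.32, also with overlap. No listed gene passed in wild type or in the difference between diet effects. Averaged over genotypes the log2 changes on the high-fat diet were -0.52 for Ero1b (adjusted p = 0.0354), -0.35 for Ppp1r15a (adjusted p = 0.0344) and 0.29 for Shmt2 (adjusted p = 0.0231). Leaving out single arrays ended these calls. In knockout livers 0 of the 111 passed when the array left out was 1 or 2 of the knockout high-fat group, 3 of the wild-type high-fat group, or 1 of the knockout low-fat group. There 1 passed when it was 3 of the knockout high-fat group, 2 of the wild-type high-fat group, or 2 or 3 of the knockout low-fat group. Averaged over genotypes 0 passed when it was array 2 of either high-fat group. In that comparison 1 passed when it was 1 or 3 of either wild-type group or 3 of the knockout low-fat group.

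Among the 13 sensors, kinases and membrane-bound factors, Ern1 (IRE1) differed by -0.52 between high-fat and low-fat knockout extracts (SE 0.154, adjusted p = 0.109). The heme-regulated kinase gene Eif2ak1 differed by -0.35 in the same comparison (SE 0.0973, adjusted p = 0.0925). With the mean of the probe sets of each gene these were -0.11 and -0.20. Eif2ak3, which encodes PERK, differed by -0.38 between the diets in wild type (SE 0.146, adjusted p = 0.517), and by -0.18 with the mean of its probe sets. None of the 13 passed in any comparison. Among 16 tested genes of endoplasmic reticulum-associated degradation, the largest genotype difference was that of Derl3, at -1.30 on the high-fat diet (SE 0.405, unadjusted p = 0.00685, adjusted p = 0.997). Derl3, a channel component for export of misfolded proteins, had 5.31, 5.49 and 5.96 in knockout extracts, against 6.27, 6.75 and 7.65 in wild-type extracts, without overlap, as in 5.01% of all probe sets in that direction. Among 26 tested targets of ATF4 and CHOP, Nupr1, a stress-induced chromatin protein, differed by 0.79 between knockout and wild type on the low-fat diet (SE 0.189, unadjusted p = 0.00112, adjusted p = 0.324). Its log2 signals were 5.05, 5.11 and 4.84 in knockout extracts, against 4.20, 4.57 and 3.86 in wild-type extracts, without overlap, as in 6.25% of all probe sets in that direction. The lowest of these lay near the filter limit of 3.83, and the mean of the probe sets of Nupr1 gave a difference of 0.53.

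In knockout livers most genes of every list had negative differences between high-fat and low-fat diet, against 51.3% of all probe sets tested. That held for 19 of 23 chaperones and folding enzymes (median -0.06), 15 of 16 degradation genes (median -0.09) and 20 of 25 genes of translocation, glycosylation and export (median -0.07), against a median of -0.01 over all genes tested. In wild-type livers these counts were 10 of 23, 6 of 16 and 9 of 25, with medians of 0.00, 0.03 and 0.04. There 53.6% of all probe sets had negative differences. Of the other lists, 9 of 13 sensors, kinases and membrane-bound factors had negative differences in knockout livers. So did 17 of 26 targets of ATF4 and CHOP and 5 of 8 cytosolic heat shock genes. By their brightest probe sets, 7 of the 10 members did in knockout livers (median -0.08) and 5 in wild-type livers (median -0.02). Between genotypes, the list medians ran from -0.06 to 0.08 on the high-fat diet and from -0.03 to 0.11 on the low-fat diet. Genes of a list share the same arrays, and no list was tested. Macrophage markers, averaged by group, were 6.23 in knockout high-fat and 5.94 in knockout low-fat extracts, and hepatocyte markers 13.1 and 13.2. Liver endothelial markers averaged 6.11 in knockout high-fat and 6.36 in knockout low-fat extracts, and stellate and fibroblast markers 6.77 and 6.55. Their part in these medians was not tested.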

How the data were processed

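The deposited log2 signals of 45141 probe sets on 12 arrays were used without further scaling. Per the submitters' processing notes the authors computed them by RMA, whose version they do not state. This method usually equalises the signal distributions of the arrays, so a change common to all genes would not show. Array medians lay between 3.94 and 4.00. Probe sets with exactly 1 gene (28898) were kept. Control probe sets (104) and probe sets with several genes (551) or none (15588) were left out. The 40% with the lowest mean were left out, which left 17339. The 4 group means were estimated by limma 3.58.1 (R 4.3.3) with a variance trend and 8 residual degrees of freedom. P-values were two-sided and adjusted by Benjamini-Hochberg over all probe sets within each of 7 comparisons; the threshold was 0.05. For gene lists the brightest probe set stood for a gene, and the p was that of the same fit. In a run on simulated data for knockout minus wild type on the high-fat diet (17339 probe sets, 200 changed), 40.3% of 1.5-fold, 91.0% of 2-fold and 98.5% of 4-fold changes were recovered, with 13 false calls of 166. In the deposited data Pml alone passed in this comparison, so the unadjusted p needed to pass was smaller than in the run. The recovered shares therefore do not carry over to the deposited data.

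The members and lists were chosen with earlier results of these data known. Named genes are all member probe sets, Pml, in each list and comparison up to 4 genes that passed or otherwise the 2 with the smallest p, and the 5 genes most like Hspa5 and Trib3. Chaperones named for their rank in within-group deviations were chosen after their values were seen. Of 127 listed genes, 116 had a probe set of their own and 111 lay above the filter. Promoters are RefSeq's, of GRCm38.p6, matched by symbol for 10 of 10 members. Alternatives tried were other normalizations, filters, summaries, variance models, array weights, the replicate block and leaving out arrays.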

Additional observations from a re-analysis of the deposited data

Results flagged for a closer look

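Dixon's test was run on 64 sets of 6 extracts, which pool both diets of a genotype or both genotypes on a diet for each member probe set. In 3 of these sets a single extract lay far from the others, where at the test's 95% level chance gives about 3.2. The sets share extracts and genes, so their flags are not independent of each other. Creld2 in wild-type low-fat replicate 1 was at 9.44 among the low-fat extracts of both genotypes, with the nearest at 7.96 (gap over range 0.724). Hspa5 in the same extract was at 11.25 among all wild-type extracts, with the nearest at 10.72 (gap over range 0.676). Dnajb9 in wild-type low-fat replicate 3 was at 10.06 among all wild-type extracts, with the nearest at 9.23 (gap over range 0.744). Each gap was above the critical value for 6 samples. These pooled sets hold 2 groups each, so a gap can also hold part of a group difference.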

How the results depend on the processing

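The count of member probe sets that passed was 0 in all 7 comparisons under every alternative that was run, 186 values in all. Of the 112 member differences, 47 kept their direction under all alternatives and 65 turned it under at least 1, with 0 passing. The number of pathway genes that passed moved more. In the diet comparison in knockout livers it was 3 of 111. It was 1 with no filter, with no variance trend and with the replicate number as a block, 0 with adjustment over all 7 comparisons and with only the groups compared, and from 0 to 2 when single arrays were left out. Averaged over genotypes it was 3, with 1 without the variance trend, 5 at an adjusted p of 0.10, 0 with adjustment over all 7 comparisons, and from 0 to 2 when single arrays were left out. Fits chosen after seeing the data gave 0 in knockout livers and 1 averaged, both without the 2 arrays lowest in macrophage markers and without wild-type low-fat replicate 1 and knockout low-fat replicate 2. The causes were not tested. Extracts of the same number deviated together with r from -0.12 to 0.34, over 0.1 in 6 of 18 pairs. No r between extracts of different numbers was set beside these, so they cannot decide whether a number marks a pair. The numbers were not taken as pairs because the titles do not say that they mark one. With the replicate block no member passed, as under every other alternative.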
